A study of Homo sapiens with 54 samples.

Results

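Genes that encode chaperones and folding helpers of the endoplasmic reticulum (ER) were followed in MDA-MB-231 cells treated with Compound Kushen Injection (CKI), a plant-derived mixture of alkaloids and other compounds, or with mixtures that lacked or held only some of its components. The 10 genes (HSPA5, HSP90B1, PDIA4, DNAJB9, SDF2L1, HERPUD1, CALR, MANF, CRELD2 and HYOU1) were taken by symbol from the 27978 genes of the count table. They were chosen with their levels, their ratios to untreated cells and their ratios between CKI and the mixtures in view, so the values of these genes are described here without p-values. MDA-MB-231 is a widely used cell line derived from a human breast cancer. RNA was sequenced from 54 libraries in 18 groups with 3 biological replicates each. In batch 1, cells were left untreated or were given CKI, N-OmtOspc, N-MacOmtOspc, OmtOspc or MacOmtOspc and were sampled after 24 or 48 h. In batch 2, cells were left untreated or were given CKI, N-Mac, N-Nme, N-Omt or N-Tri and were sampled after 48 h only. A name that begins with N- is CKI from which the named compounds were removed, while OmtOspc and MacOmtOspc hold the named compounds alone. Omt stands for oxymatrine, Ospc for oxysophocarpine, Mac for macrozamin, Nme for N-methylcytisine and Tri for trifolirhizin. CKI was given at 2 mg/ml and each mixture at the amount equivalent to 2 mg/ml of CKI.

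Proteins that enter the ER are folded there by chaperones, and when unfolded protein builds up, the sensors IRE1, PERK and ATF6 start the unfolded-protein response (UPR). ATF6 and the spliced form of XBP1, made through IRE1, raise transcription of chaperone genes through ER stress elements in their promoters, while PERK slows translation and favours that of ATF4. HSPA5 encodes BiP (GRP78), the main ER chaperone and a brake on the sensors, and is commonly read as a gauge of the response.

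The promoters are shown first, and most of them hold an ER stress element. The genes are chaperones and helpers of a response that acts through this element, so its presence is a description and no independent support. Promoter windows of RefSeq (GRCh38.p14), from 250 bases before to 50 bases after the annotated start, were matched for all 10. They were searched on both strands for the ER stress element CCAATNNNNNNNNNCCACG, its second form ATTGGNCCACG, the UPR core TGACGTG and the amino acid response element TGATGNAAT. An ER stress element of either form was present in 7 of the 10 windows and in 46 of all 34796 windows (0.132%). The first form was found in HSPA5, HSP90B1, CALR and CRELD2 and in 0.0776% of all windows, and the second in SDF2L1, HERPUD1 and HYOU1 and in 0.0546%. The UPR core was found in 1 member, HYOU1, where it overlapped an element of the second form, and in 1.96% of all windows. The amino acid response element was found in 0 of the 10 and in 1% of all windows. A match describes the letters of the window, not use of the site. The 9 elements follow with 8 bases on each side, each read in the direction of the motif, with the element in capitals.
HSPA5, chr9:125241383-125241417, minus strand: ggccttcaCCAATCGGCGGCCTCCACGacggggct
HSP90B1, chr12:103930208-103930242, plus strand: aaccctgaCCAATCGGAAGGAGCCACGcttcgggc
HSP90B1, chr12:103930313-103930347, minus strand: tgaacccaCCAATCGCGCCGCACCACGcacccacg
SDF2L1, chr22:21642106-21642132, minus strand: gggttttgATTGGTCCACGcttccgag
HERPUD1, chr16:56932017-56932043, plus strand: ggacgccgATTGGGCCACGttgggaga
CALR, chr19:12938376-12938410, minus strand: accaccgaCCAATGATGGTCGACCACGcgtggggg
CRELD2, chr22:49918546-49918580, minus strand: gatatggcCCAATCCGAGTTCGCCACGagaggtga
HYOU1, chr11:119057372-119057398, plus strand: ggcctgggATTGGACCACGtcacgggg
HYOU1, chr11:119057266-119057292, plus strand: gcgtactcATTGGACCACGtcccaggc
The distance from the start differed between genes. In HSPA5 the element lay 66 to 48 bases before the start and in CRELD2, on the opposite strand, 80 to 62 bases before it. PDIA4, DNAJB9 and MANF held no element of either form in this window. For 3 genes described at length below, the 250 bases before the start are shown in the direction of the gene, again with the element in capitals. HSPA5 was the member with the widest range of group means, HERPUD1 the one whose ratios to untreated cells followed HSPA5 most closely, and CRELD2 was below untreated cells in 13 of 15 treated groups.
HSPA5, chr9:125241344-125241593, minus strand: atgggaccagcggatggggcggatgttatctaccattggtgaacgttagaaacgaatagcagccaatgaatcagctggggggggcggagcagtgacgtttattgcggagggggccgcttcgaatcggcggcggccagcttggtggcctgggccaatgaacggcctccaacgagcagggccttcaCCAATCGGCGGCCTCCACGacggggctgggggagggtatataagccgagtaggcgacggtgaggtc
HERPUD1, chr16:56931892-56932141, plus strand: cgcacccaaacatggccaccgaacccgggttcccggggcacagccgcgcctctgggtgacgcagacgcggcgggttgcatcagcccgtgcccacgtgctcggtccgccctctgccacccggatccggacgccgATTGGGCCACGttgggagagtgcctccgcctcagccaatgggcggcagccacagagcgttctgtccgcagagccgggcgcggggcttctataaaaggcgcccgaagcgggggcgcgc
CRELD2, chr22:49918384-49918633, plus strand: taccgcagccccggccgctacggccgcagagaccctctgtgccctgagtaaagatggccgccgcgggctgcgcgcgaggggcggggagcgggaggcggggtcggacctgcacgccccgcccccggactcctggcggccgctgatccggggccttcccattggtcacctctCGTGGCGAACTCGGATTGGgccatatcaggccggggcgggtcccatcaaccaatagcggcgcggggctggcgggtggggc

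Libraries held between 17673537 and 26138924 counted reads, with a median of 22568666.5, and each member had at least 94 reads in every library. Levels are given as CPM, the reads of a gene relative to the library total after TMM scaling over all libraries. Differences are log2 differences with a standard error (SE) derived from the edgeR fit. The SE is the size of the log2 difference divided by the square root of the F statistic of its test. It rests on a spread shared by all libraries of a fit, not on the compared groups alone. Levels were not divided by gene length and are compared only within a gene. The line's known markers VIM, CD44, AXL and KRT18 were high (at least 77.1 CPM) and ESR1 and PGR were at most 0.333 and 0.0922 CPM. EPCAM and CDH1, listed with them as low or absent in this line, were at 6.19 to 27.6 CPM and 0.0489 to 7.19 CPM. Of 6 fibroblast markers, COL1A1 reached 65.2 CPM, while DCN and POSTN were at 0 in the median library. The summed level of the 6 moved with treatment. It was 60.6 to 63.4 CPM in untreated cells, 34.4 to 35.3 CPM with CKI, 71 to 78.5 CPM with N-OmtOspc and 22.6 to 25 CPM with OmtOspc at 48 h in batch 1, and its part in the results was not tested. In 3 libraries of 24 h (CKI replicate 1, N-MacOmtOspc replicate 2 and OmtOspc replicate 2), whose columns carry no replicate number, the deviation from the rest of the group followed the difference between batches, with slopes of 0.573 to 0.673 against -0.392 to 0.0944 in the other 33 libraries of batch 1. Several results at 24 h are therefore also given without them. The untreated libraries of batch 2 differed among themselves in these genes. HSPA5 was at 2691, 2070.0 and 3912 CPM in replicates 1, 2 and 3, a range of 0.92 on the log2 scale, and the median range over the 10 genes was 0.73, against 0.13 over all genes of at least 10 CPM. In untreated cells of batch 1 the range of HSPA5 was 0.06 at 24 h and 0.09 at 48 h. Ratios to untreated cells in batch 2 are therefore also given without replicate 3 and without replicate 2 for the genes and medians where they are named. In bulk RNA, fewer cells of a type and less RNA per cell cannot be told apart.

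After 24 h of CKI most of the 10 genes were somewhat above untreated cells, and after 48 h nearly all of them were below. BiP showed this change of direction. In untreated cells at 24 h HSPA5 was at 745, 769 and 738 CPM, and with CKI it was at 1091, 1012 and 1002 CPM. All CKI libraries lay above all untreated ones, a log2 difference of 0.47 ± 0.17 (SE, n = 3). At 48 h in batch 1 untreated cells had 1332, 1253 and 1264 CPM and CKI-treated cells 799, 732 and 741 CPM. The order was turned round, with a log2 difference of -0.76 ± 0.07. In batch 2, where untreated cells ranged from 2070.0 to 3912 CPM, CKI-treated cells were at 907, 915 and 894 CPM, a log2 difference of -1.67 ± 0.11, or 3.18-fold lower. Without untreated replicate 3 the difference was -1.40 ± 0.07, and without replicate 2 it was -1.86 ± 0.08.

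**Figure D1:**
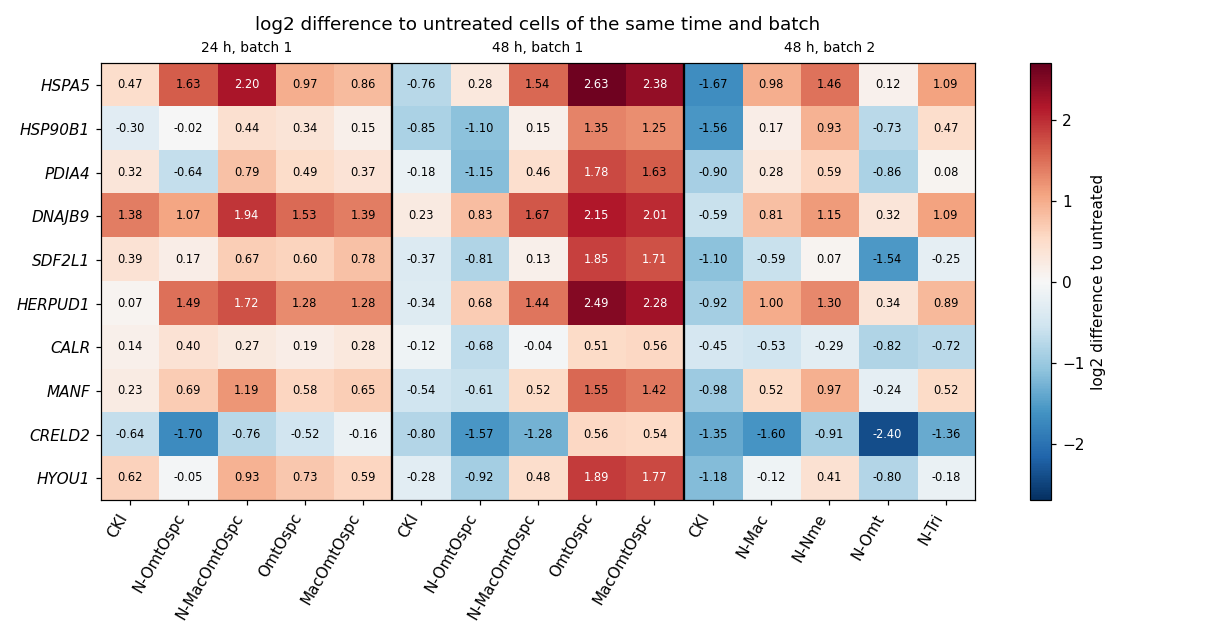
Heat map of the log2 difference to untreated cells of the same time and batch for the 10 genes (rows) in the 15 treated groups (columns), from fits with 3 libraries in each group. Red is higher and blue lower than untreated: the CKI columns change from mostly red at 24 h to mostly blue at 48 h, the OmtOspc and MacOmtOspc columns at 48 h are red for every gene, and the CRELD2 row is blue in 13 of 15 columns.

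The other large chaperones did not all follow BiP at 24 h. HSP90B1, which encodes GRP94, the ER form of HSP90, was at 706, 713 and 697 CPM untreated and 636, 543 and 538 CPM with CKI. It was lower in every CKI library, with a log2 difference of -0.30 ± 0.15, and the difference was -0.85 ± 0.10 in batch 1 and -1.56 ± 0.06 in batch 2 at 48 h. HYOU1, an ER relative of HSP70 that exchanges nucleotides on BiP, had log2 differences of 0.62 ± 0.12 at 24 h and of -0.28 ± 0.07 and -1.18 ± 0.10 at 48 h. CALR, which encodes the lectin chaperone calreticulin, stayed closer to untreated cells, at 0.14 ± 0.11, -0.12 ± 0.08 and -0.45 ± 0.06. All 4 of these chaperones had negative differences in both batches at 48 h.

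DNAJB9 (ERdj4), a J-domain co-chaperone of BiP, had the highest ratio to untreated cells of the 10 genes after 24 h of CKI. It was at 16, 17.9 and 18 CPM untreated and at 54.5, 42.6 and 37.4 CPM with CKI, a log2 difference of 1.38 ± 0.15, and it was the 1 member still above untreated cells at 48 h in batch 1 (0.23 ± 0.07). In batch 2 it was lower, at -0.59 ± 0.10, with -0.34 ± 0.07 without untreated replicate 3 and -0.76 ± 0.08 without replicate 2. SDF2L1, which works with ER J-domain proteins, had differences of 0.39 ± 0.19 at 24 h and of -0.37 ± 0.08 and -1.10 ± 0.11 at 48 h in batches 1 and 2. For PDIA4 (ERp72), a protein disulfide isomerase, the values were 0.32 ± 0.12, -0.18 ± 0.07 and -0.90 ± 0.06. These 3 folding helpers kept the same order of groups, highest at 24 h and lowest in batch 2.

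HERPUD1, a membrane protein that takes part in ER-associated degradation, was nearly level with untreated cells after 24 h of CKI, at 43.2, 34.7 and 40.7 CPM against 37, 38.6 and 37.6 CPM (0.07 ± 0.13). Its libraries overlapped at 24 h, and at 48 h the differences were -0.34 ± 0.08 and -0.92 ± 0.10. MANF, a secreted factor of the ER stress response, had differences of 0.23 ± 0.16, -0.54 ± 0.07 and -0.98 ± 0.09. CRELD2, an ER protein that is also secreted, was below untreated cells at each time. Its libraries held 26.8, 24.4 and 21.6 CPM untreated and 11.8, 16.9 and 18.1 CPM with CKI at 24 h, and its log2 differences were -0.64 ± 0.17, -0.80 ± 0.09 and -1.35 ± 0.09.

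Over the 10 genes, the median log2 difference between CKI and untreated cells was 0.28 at 24 h, -0.36 at 48 h in batch 1 and -1.04 at 48 h in batch 2, against 0.02, 0.01 and -0.01 over all genes tested. At 24 h 7 genes were higher and 2 lower with no overlap between the libraries, as were 26.1% and 26.3% of all genes tested. At 48 h 1 was higher and 9 lower in batch 1 (31.3% and 31.9% of all genes), and 10 were lower in batch 2 (35.9%). Nothing is read from these counts, since the genes were chosen on this contrast. Without the 3 libraries named above the median at 24 h was 0.28, with 7 in place of 8 genes above 0. The differences were then 0.42 for HSPA5, -0.39 for HSP90B1, 0.29 for PDIA4, 1.21 for DNAJB9 and 0.48 for SDF2L1. They were -0.005 for HERPUD1, 0.18 for CALR, 0.27 for MANF, -0.47 for CRELD2 and 0.58 for HYOU1. Without untreated replicate 3 the median in batch 2 was -0.84, and without replicate 2 it was -1.20. In the same order the differences in batch 2 were -1.49 and -1.62 for HSP90B1, -0.792 and -0.997 for PDIA4, -0.87 and -1.27 for SDF2L1, -0.67 and -1.10 for HERPUD1 and -0.40 and -0.49 for CALR. They were -0.80 and -1.12 for MANF, -1.25 and -1.46 for CRELD2 and -0.94 and -1.36 for HYOU1, so each of the 10 genes stayed below 0.

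The alkaloid pair alone gave the opposite direction at 48 h. With OmtOspc all 10 genes were higher than in untreated cells, with no overlap between libraries, as were 34.9% of all genes tested. HSPA5 stood at 7997, 7789 and 8160.1 CPM against 1253 to 1332 CPM in untreated cells, 6.18-fold higher (2.63 ± 0.07 on the log2 scale). HERPUD1 was at 294, 286 and 303 CPM against 52.1, 54.8 and 49.5 CPM, a log2 difference of 2.49 ± 0.08. The log2 difference was 2.15 ± 0.07 for DNAJB9, 1.89 ± 0.07 for HYOU1, 1.85 ± 0.08 for SDF2L1 and 1.78 ± 0.07 for PDIA4. It was smaller for MANF (1.55 ± 0.07) and HSP90B1 (1.35 ± 0.10), and smallest for CRELD2 (0.56 ± 0.09) and CALR (0.51 ± 0.08). The 10 genes together took 1.81% to 1.9% of all reads of these libraries, against 0.531% to 0.547% in untreated cells and 0.425% to 0.444% with CKI. MacOmtOspc, with 10 of the 10 genes higher and 0 lower (31.9% and 29.7% of all genes) and no overlap, had a median of 1.67, against 1.82 for OmtOspc. At 24 h the medians were 0.59 with OmtOspc and 0.62 with MacOmtOspc, and 9 of the 10 genes lay above 0 in both, CRELD2 being below. Without overlap, OmtOspc at 24 h had 9 of the 10 genes higher and 1 lower (18.5% and 18.3% of all genes) and MacOmtOspc 9 of the 10 genes higher and 0 lower (22.6% and 22.5% of all genes). Without the 3 libraries the median for OmtOspc at 24 h was 0.56.

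Of the 12 contrasts between whole CKI and a mixture, that with the alkaloid pair at 48 h had the largest median difference in these genes. CKI was lower than OmtOspc in all 10 genes and lower than MacOmtOspc in all 10 at 48 h, with no overlap (33.8% and 31.5% of all genes were lower in this way). The median log2 difference was -2.13 against OmtOspc and -2.01 against MacOmtOspc. HSPA5 was 10.4-fold lower with CKI than with OmtOspc and HERPUD1 7.08-fold lower, while CALR was 1.54-fold lower. At 24 h the medians were -0.19 against OmtOspc and -0.39 against MacOmtOspc, with 0 and 3 (11.5% and 12.9%) and 0 and 5 (18.4% and 20.1%) genes higher and lower without overlap. Without the 3 libraries named above these medians were -0.20 and -0.31. Against OmtOspc 3 genes (PDIA4, CRELD2 and HYOU1) then lay above 0 in place of 0, and against MacOmtOspc 0 in place of 1.

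CKI without the same alkaloids had a mixed pattern. With N-OmtOspc HSPA5 was above untreated cells at 24 h, at 2276, 2054 and 2509 CPM, a log2 difference of 1.63 ± 0.18, and so was HERPUD1, at 107, 103 and 103 CPM (1.49 ± 0.13). PDIA4 and CRELD2 were lower in the same libraries, with log2 differences of -0.64 ± 0.12 and -1.70 ± 0.18. At 48 h 3 genes lay above untreated cells with N-OmtOspc, namely DNAJB9 (0.83 ± 0.07), HERPUD1 (0.68 ± 0.08) and HSPA5 (0.28 ± 0.07), and 7 lay below them, down to -1.57 ± 0.10 for CRELD2. N-MacOmtOspc, which also lacks macrozamin, had HSPA5 at 3942, 2276 and 4117 CPM at 24 h and at 3812, 3837 and 3611 CPM at 48 h. The lowest of these, replicate 2 at 24 h, is one of the 3 libraries named above. The log2 differences to untreated cells were 2.20 ± 0.18 and 1.54 ± 0.07. The median over the 10 genes was 0.86 at 24 h, 0.90 without those libraries, and 0.47 at 48 h. Whole CKI lay below N-MacOmtOspc, with a median log2 difference of -0.51 at 24 h (-0.67 without those libraries) and -0.88 at 48 h. The genes higher and lower than in untreated cells without overlap numbered 5 and 2 (33.7% and 36.6%) with N-OmtOspc and 9 and 1 (27.9% and 28.3%) with N-MacOmtOspc at 24 h, and 3 and 7 (39.8% and 40.1%) and 6 and 1 (33.6% and 33.7%) at 48 h, with the share of all genes in parentheses. Against N-OmtOspc the median of CKI was -0.02 at 24 h and 0.35 at 48 h. CKI was higher and lower without overlap than N-OmtOspc in 4 and 5 (31.4% and 29.3%) genes at 24 h and 6 and 3 (39.5% and 38.1%) at 48 h, and than N-MacOmtOspc in 0 and 7 (20.8% and 20.7%) and 1 and 8 (33.2% and 32.3%).

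In batch 2 each mixture lacked 1 compound. HSPA5 was at 5610.1, 5616 and 5748 CPM with N-Mac and at 7743, 8171 and 8211 CPM with N-Nme. It was at 3099.8, 3192 and 3175 CPM with N-Omt and at 6505, 6357 and 6019.6 CPM with N-Tri, against 894 to 915 CPM with whole CKI. All 12 libraries lay above the CKI libraries, and those of N-Omt fell within the range of untreated cells. HSPA5 was 6.29-fold lower with CKI than with N-Mac, 8.74-fold lower than with N-Nme, 3.47-fold lower than with N-Omt and 6.78-fold lower than with N-Tri. Relative to untreated cells its log2 differences were 0.98 ± 0.11, 1.46 ± 0.11, 0.12 ± 0.11 and 1.09 ± 0.11 in the same order, and 1.25 ± 0.07, 1.73 ± 0.07, 0.39 ± 0.07 and 1.36 ± 0.07 without untreated replicate 3. Without untreated replicate 2 they were 0.79 ± 0.08, 1.27 ± 0.08, -0.07 ± 0.08 and 0.90 ± 0.08, so that the sign with N-Omt depended on the untreated libraries. The median over the 10 genes was 0.23 with N-Mac, 0.76 with N-Nme, -0.77 with N-Omt and 0.27 with N-Tri. It was 0.32, 0.85, -0.61 and 0.36 without replicate 3, and 0.15, 0.66, -0.83 and 0.18 without replicate 2. Genes higher and lower than untreated without overlap numbered 5 and 3 (36.9% and 36.7%) with N-Mac, 6 and 2 (36.7% and 34%) with N-Nme, 0 and 6 (39.1% and 40.2%) with N-Omt and 5 and 2 (38% and 37.1%) with N-Tri. CKI was higher and lower than N-Mac in 2 and 8 (36.6% and 36.5%), than N-Nme in 0 and 10 (34.6% and 37.8%), than N-Omt in 3 and 7 (40% and 39.1%) and than N-Tri in 1 and 8 (37% and 38.8%). The median of CKI against them was -1.29, -1.67, -0.56 and -1.25. CALR and CRELD2 lay below untreated cells with all 4 mixtures. CRELD2 was at 6.42, 5.29 and 4.75 CPM with N-Omt against 24.5 to 33.2 CPM in untreated cells, a log2 difference of -2.40 ± 0.11.

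**Figure D2:**
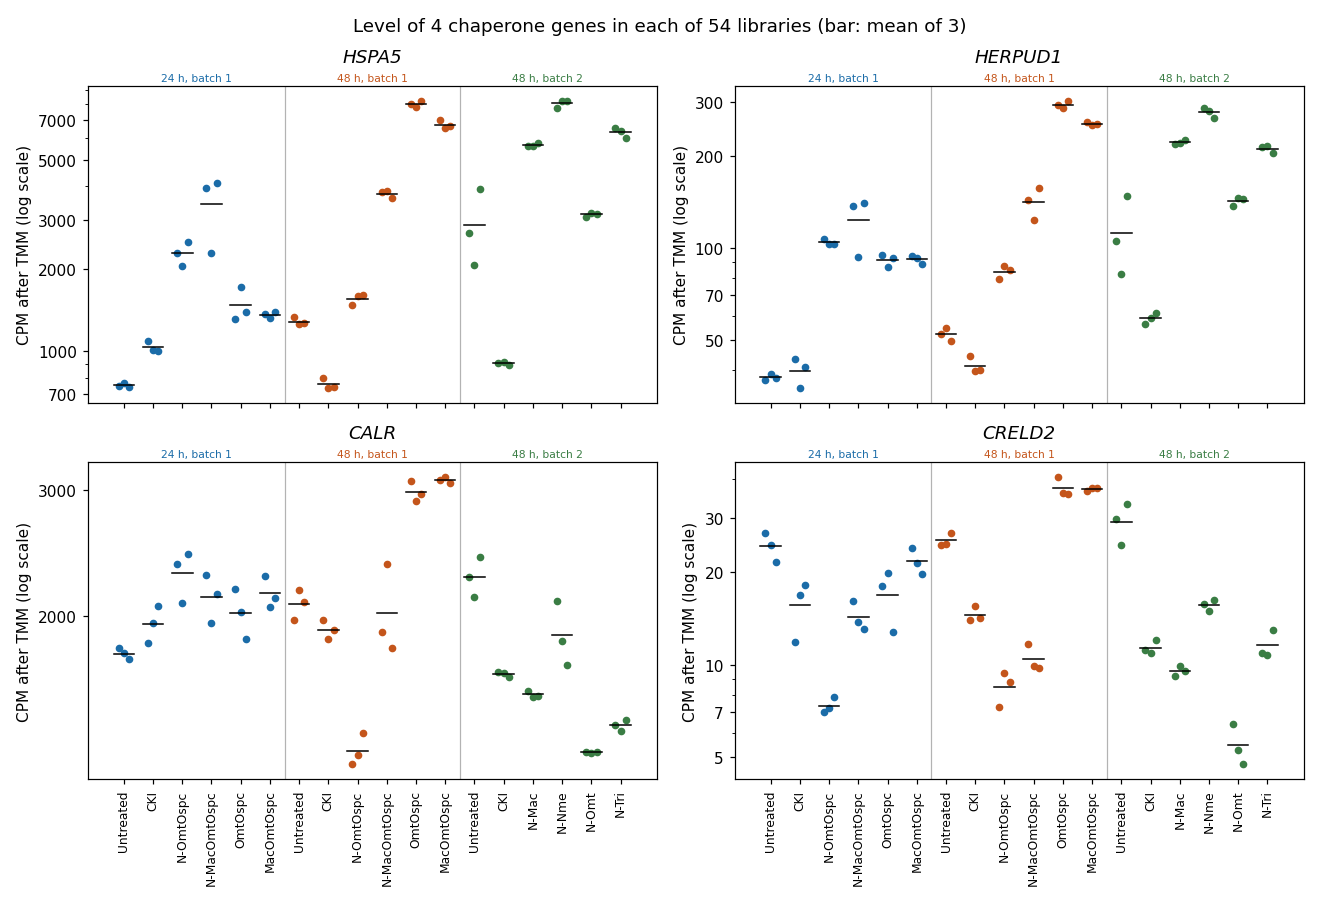
CPM after TMM scaling (log axes) of HSPA5, HERPUD1, CALR and CRELD2 in each of the 54 libraries, grouped by treatment within time and batch; points are libraries and bars the mean of 3. HSPA5 spans 732 to 8211 CPM while CALR spans 1241 to 3129 CPM, and the untreated libraries of batch 2 are spread for HSPA5 and HERPUD1.

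Ordered by mean level over all 18 groups, HSPA5 was highest with N-Nme at 48 h (8042 CPM), followed by OmtOspc at 48 h (7982 CPM), which overlapped it. Then came MacOmtOspc at 48 h (6711 CPM), N-Tri (6294 CPM) and N-Mac (5658 CPM), each apart from the next. It was lowest in CKI-treated cells at 48 h in batch 1 (758 CPM) and in untreated cells at 24 h (751 CPM), which overlapped. Of the 17 steps between neighbours in this order, 9 joined groups with overlapping libraries, compared with 12 for CALR and 14 for CRELD2. The highest group mean was 10.7 times the lowest for HSPA5, 9.57 times for DNAJB9, 7.8 times for HERPUD1 and 2.4 times for CALR. Across the 15 treated groups, the ratio of each gene to untreated cells followed the mean of the other 9 with a Pearson correlation of 0.743 (CRELD2) to 0.968 (HYOU1), a description over groups that share 3 sets of untreated libraries.

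The mixtures were also set against each other in 14 pairs at matched dose and time. A difference between mixtures is the difference of levels and ratios on which the 10 genes were chosen, so it is given as a description, without p-values. Beside it stands the number of the 10 genes past the threshold of the edgeR fit (an adjusted p under 0.05 over all genes tested) and the share of all genes past it, and nothing is read from how these counts compare. The largest median difference was that between the alkaloid pair and the mixture that lacks it at 48 h. All 10 genes were lower with N-OmtOspc than with OmtOspc, where 36.9% of all genes tested were past the threshold in this direction, with a median of -2.25 against 0.00 over all genes. PDIA4 was at 159, 179 and 179 CPM with N-OmtOspc and at 1334, 1302 and 1331 CPM with OmtOspc, a log2 difference of -2.93 ± 0.07. The log2 difference was -2.81 for HYOU1 and -2.66 for SDF2L1, and the smallest difference was that of CALR, -1.19 ± 0.08. At 24 h the same mixtures differed in both directions. HSPA5 was higher with N-OmtOspc by 0.65 ± 0.17, and 5 genes were lower past the threshold, among them CRELD2 (-1.17 ± 0.18) and PDIA4 (-1.13 ± 0.12). Of all genes 61.7% were past the threshold, 30.3% higher and 31.4% lower. DNAJB9 and HSP90B1 missed the threshold without OmtOspc replicate 2, and HSPA5 missed it with library sizes alone. HSP90B1 missed it also without any 1 N-OmtOspc library, with DESeq2, with RLE size factors and with a replicate block.

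Where oxymatrine and oxysophocarpine were already absent, lack of macrozamin went with higher chaperone expression. At 48 h all 10 genes were higher with N-MacOmtOspc than with N-OmtOspc (25.9% of all genes), with a median of 1.03. PDIA4 was higher by 1.61 ± 0.07 and HSPA5 by 1.26 ± 0.07. The smallest difference was that of CRELD2, 0.29 ± 0.10, which missed the threshold without replicate 1 of either group. CRELD2 missed it also with library sizes alone (0.17), with all 54 libraries in one fit (0.30) and in a fit of the pair alone (0.30). At 24 h 8 of the 10 were higher past the threshold and 0 lower (23.8% and 23.8% of all genes). CALR and HERPUD1 did not pass it, and PDIA4 again differed most, by 1.43 ± 0.12. HSPA5 differed by 0.58 ± 0.17, and like MANF and SDF2L1 it missed the threshold without N-MacOmtOspc replicate 1 or 3. SDF2L1 and MANF missed it also without N-OmtOspc replicate 2, SDF2L1 without its replicate 1 or 3, and HSP90B1 without N-MacOmtOspc replicate 3.

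Between MacOmtOspc and OmtOspc, which differ by macrozamin, 0 of the 10 genes were past the threshold of edgeR at 24 h and 0 at 48 h, with 0% and 1.98% of all genes past it. At 48 h 4 members had an unadjusted p under 0.05 and DESeq2 put 1 past its threshold, HSPA5, while at 24 h both counts were 0. HSPA5 at 48 h was at 6958, 6546 and 6629 CPM with macrozamin and at 7997, 7789 and 8160.1 CPM without it, which do not overlap, a log2 difference of -0.25 ± 0.07. The 95% intervals of the 10 genes lay between -0.38 and 0.22 at 48 h and between -0.48 and 0.70 at 24 h. The genes were chosen on levels of these same groups, so these counts and intervals are descriptions. They are no test of an effect of macrozamin or of its absence.

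The mixture lacking 3 components and the mixture holding only those 3 changed places with time. Past the threshold, N-MacOmtOspc at 24 h was higher than MacOmtOspc in 6 of the 10 genes and lower in 1 (18.7% and 18.1% of all genes), with HSPA5 higher by 1.35 ± 0.18. CRELD2 was the 1 that was lower (-0.59 ± 0.17), and it missed the threshold without MacOmtOspc replicate 1 or N-MacOmtOspc replicate 3. HERPUD1, MANF and HYOU1 missed it without N-MacOmtOspc replicate 1 or 3 or without MacOmtOspc replicate 3, and HYOU1 also without MacOmtOspc replicate 1 or 2. At 48 h all 10 were lower (31.6% of all genes), with a median of -1.01, CRELD2 differing most (-1.83 ± 0.09) and DNAJB9 least (-0.34 ± 0.06).

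**Figure D3:**
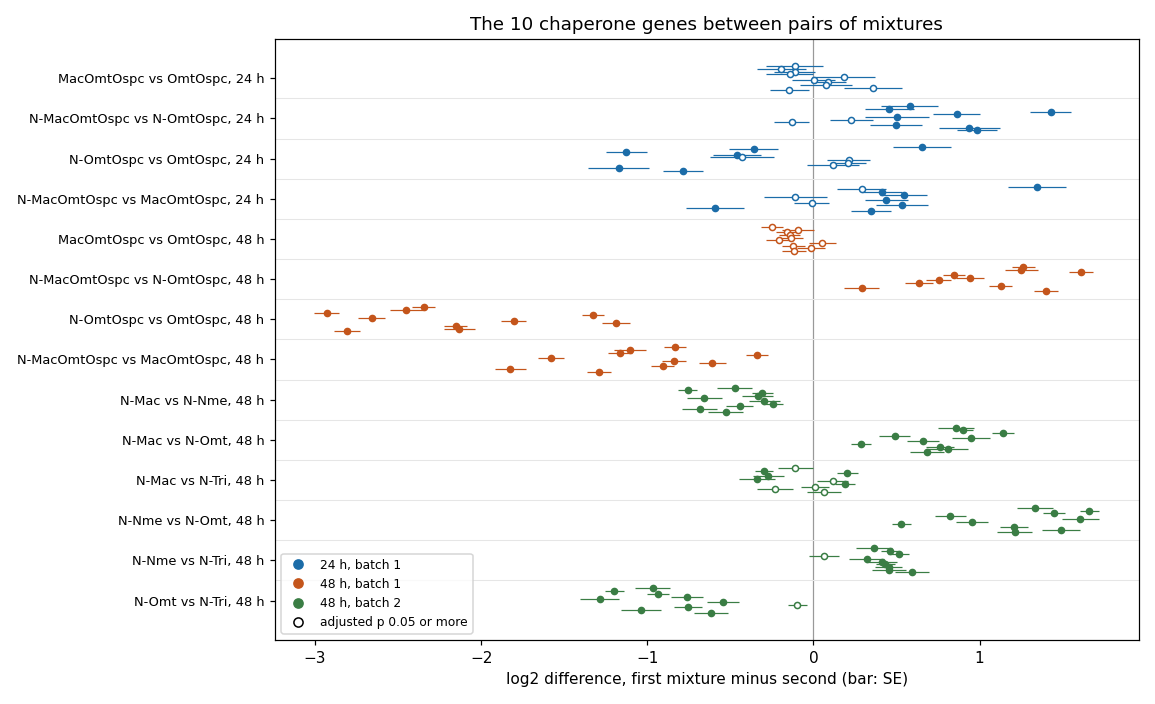
log2 difference of each of the 10 genes between the mixtures of 14 pairs (first minus second), with bars for the SE of the fit; filled points are past an adjusted p of 0.05 over all genes, a description for genes chosen on these groups. At 48 h all points of N-OmtOspc against OmtOspc lie at or below -1.19, and all points of MacOmtOspc against OmtOspc are open at both times.

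Among mixtures lacking 1 compound, these genes were mostly highest with N-Nme and lowest with N-Omt. N-Nme exceeded N-Omt in all 10 (32.6% of all genes were higher past the threshold), with a median of 1.27. HSP90B1 was at 2929, 3173 and 3200.5 CPM with N-Nme and at 942, 987 and 981 CPM with N-Omt, a log2 difference of 1.66 ± 0.06, and SDF2L1 differed by 1.61 ± 0.11. N-Mac exceeded N-Omt in all 10 (30.8%), by up to 1.14 ± 0.07 for PDIA4. Past the threshold N-Omt was lower than N-Tri in 9 of 10 (30.6%), CALR being the gene that did not pass, and SDF2L1 differed most (-1.29 ± 0.12). N-Mac was lower than N-Nme in all 10 (15%), with HSP90B1 differing most (-0.76 ± 0.06). N-Nme exceeded N-Tri past the threshold in 9 of 10 (11.5%), by up to 0.59 ± 0.10 for HYOU1, and DNAJB9 did not pass. HERPUD1 between N-Mac and N-Nme, and HSPA5 and SDF2L1 between N-Nme and N-Tri, missed the threshold when certain single libraries were left out. Between N-Mac and N-Tri 2 genes were higher and 3 lower in N-Mac past the threshold (20.3% and 16.6%), SDF2L1 differing most (-0.34 ± 0.11), and CALR, DNAJB9 and SDF2L1 each missed the threshold in this pair when certain single libraries were left out. With all 54 libraries in one fit, CRELD2, HERPUD1, HSPA5, MANF and SDF2L1 missed it between N-Nme and N-Tri, and HERPUD1 between N-Mac and N-Nme. In that fit CALR, DNAJB9, PDIA4 and SDF2L1 missed it between N-Mac and N-Tri. With DESeq2 HSPA5 and SDF2L1 missed it between N-Nme and N-Tri, DNAJB9 and HERPUD1 between N-Mac and N-Nme, and DNAJB9 between N-Mac and N-Tri.

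Over all pairs, 21 of 40 differences of these genes were past the threshold at 24 h, 30 of 40 at 48 h in batch 1 and 53 of 60 at 48 h in batch 2, with 36.5%, 46.8% and 44.9% of the differences of all genes past it. The genes were chosen on levels of these same groups and several pairs share a mixture, so the counts give no support for a difference from other genes. At 24 h the count was 23 without the 3 libraries named above and 13 without N-MacOmtOspc replicate 3.

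The change of a pair between 24 and 48 h was taken from a fit of all 54 libraries, and it too is a description, since it is made of the same levels. N-OmtOspc minus OmtOspc went down between the time points in all 10 genes (20.3% of all genes went down past the threshold), most for HSPA5 (-2.99 ± 0.19). N-MacOmtOspc minus MacOmtOspc also went down in all 10 (7.12% of all genes), with -2.18 ± 0.19 for HSPA5 and -1.64 ± 0.16 for HYOU1. CALR (-0.59) missed the threshold for this pair in a fit of the groups of its contrast only. N-MacOmtOspc minus N-OmtOspc went up past the threshold in 6 genes (21.2%) and down in 1, CRELD2 (22.3%), but most of this depended on the scaling. With library sizes alone HSPA5 (0.27), HSP90B1 (0.37), HERPUD1 (0.11), MANF (0.21) and HYOU1 (-0.016) were no longer past it, and the median of the 10 genes was 0.06 in place of 0.47, while that of all genes moved by -0.42. HSPA5, HERPUD1, MANF and HYOU1 also missed the threshold in a fit of the groups of this contrast only, HYOU1 also when any of 6 single libraries was left out (N-OmtOspc replicate 3 of 24 h and replicates 1 and 2 of 48 h, and N-MacOmtOspc replicate 2 of 24 h and replicates 1 and 2 of 48 h), and HERPUD1 also without N-MacOmtOspc replicate 2 of 24 h. For MacOmtOspc minus OmtOspc 0 of the 10 genes and 0% of all genes were past the threshold of edgeR, 1 of the 10 had an unadjusted p under 0.05, and 0 were past the threshold of DESeq2. Over the 4 pairs 27 of 40 changes were past it (23.5% over all genes), and 25 without the 3 libraries.

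Untreated cells also differed between times and batches. From 24 to 48 h in batch 1, 7 of the 10 genes were higher past the threshold and 0 lower (3.55% and 3.52% of all genes). Untreated levels were in view when the genes were chosen, so nothing is read from this count. HSPA5 went from 738 to 769 CPM to a range of 1253 to 1332 CPM, a log2 difference of 0.77 ± 0.14, and DNAJB9 differed by 0.78 ± 0.12. SDF2L1, CALR and CRELD2 did not pass it. The count was 4 without untreated replicate 1 of 24 h and 4 without replicate 1 of 48 h. Between the batches at 48 h, 7 of 10 genes were higher in batch 2 past the threshold (22.6% of all genes) and 0 lower (19.2%). DNAJB9 differed most, by 1.31 ± 0.12, followed by HSPA5, by 1.17 ± 0.14. CALR, MANF and CRELD2 did not pass it, and SDF2L1 (0.45 ± 0.15) missed it without replicate 3 of batch 2 and without replicate 1 or 2 of batch 1. The ratio of a treated group to untreated cells thus rests on an untreated level that was 2.25-fold higher for HSPA5 in batch 2.

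The number of BiP reads per GRP94 read within a library does not depend on the scaling of libraries. It was 1.06 ± 0.0125 (SD, n = 3) in untreated cells at 24 h, 1.32 ± 0.0176 at 48 h in batch 1 and 1.77 ± 0.399 in batch 2. With CKI it was 1.81 ± 0.0853 at 24 h and 1.4 ± 0.0322 and 1.67 ± 0.0408 at 48 h. Every mixture of 48 h lay above these, from 2.59 ± 0.0422 with N-Nme to 3.56 ± 0.733 with N-MacOmtOspc. N-Nme, the group with most HSPA5, thus had the lowest ratio among the mixtures of 48 h, and N-Omt was at 3.25 ± 0.0317. At 24 h OmtOspc (1.69 ± 0.209) and MacOmtOspc (1.74 ± 0.0455) overlapped CKI, while N-OmtOspc was at 3.33 ± 0.26 and N-MacOmtOspc at 3.6 ± 0.953. The number of HSPA5 reads per CRELD2 read was 31.1 ± 3.21 in untreated cells at 24 h. In batch 2 at 48 h it was 97.7 ± 17.8 in untreated cells, 79.7 ± 4.93 with CKI and 593 ± 23.2 with N-Mac. The other single removals were near N-Mac, at 513 ± 29 with N-Nme, 585 ± 94.4 with N-Omt and 549 ± 73.3 with N-Tri. These ratios too are descriptions.

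**Figure D4:**
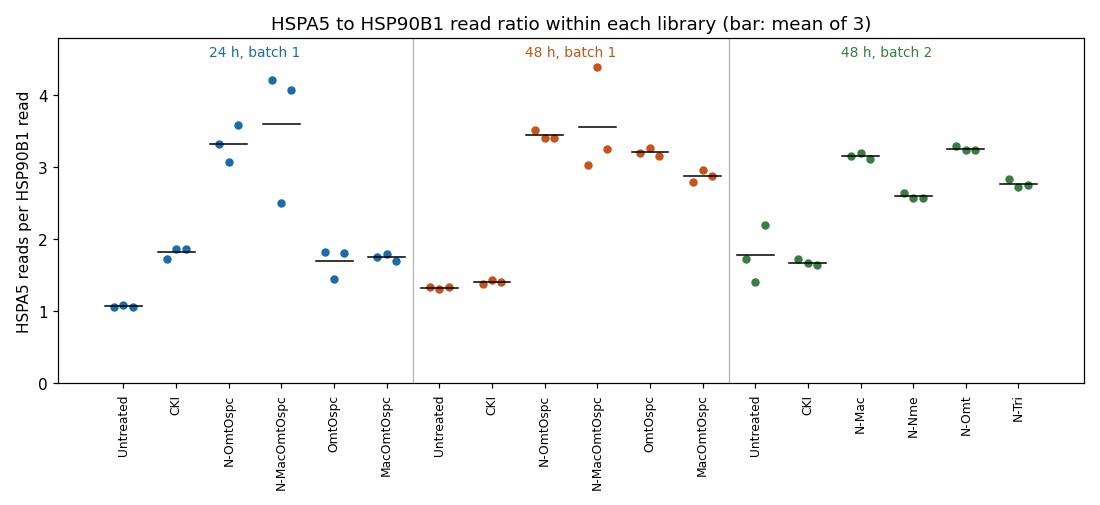
Reads of HSPA5 (BiP, GRP78) per read of HSP90B1 (GRP94) within each library, by treatment, time and batch; points are libraries and bars the mean of 3, on an axis from 0. Untreated and CKI libraries lie at or below 2.2, and the libraries of the mixtures at 48 h lie at or above 2.57.

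With CKI, 27 of 54 other ER genes rose at 24 h and 26 did not pass the test, and calls went in both directions at 48 h. The list held 8 sensors and transcription factors, 19 folding enzymes and co-chaperones, 15 genes of ER-associated degradation and 12 of translocation, and all were tested. After 24 h of CKI 27 rose and 1 fell (15.3% and 14.8% of all genes), with a median log2 difference of 0.35. At 48 h 21 rose and 6 fell in batch 1 (27% and 27%), with a median of 0.06, and 17 rose and 23 fell in batch 2 (32.3% and 34.2%), with a median of -0.09. At 24 h 17 to 22 rose when 1 library was left out (17 without untreated replicate 3), and the 1 gene that fell, DERL3, was not called without CKI replicate 2. With OmtOspc at 48 h 42 rose and 4 fell (29.1% and 28.7%), and with N-OmtOspc 13 rose and 33 fell (38.3% and 38.3%).

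Of the 8 sensors and transcription factors 3 rose and 0 fell with CKI at 24 h (15.3% and 14.8% of all genes). At 48 h 4 rose and 2 fell in each batch (27% and 27%, then 32.3% and 34.2%). XBP1 and CREB3L2 were those that fell. XBP1 had -0.11 ± 0.10, which did not pass, -0.41 ± 0.07 and -0.77 ± 0.06. CREB3L2 had -0.24 ± 0.32, which did not pass, -0.57 ± 0.07 and -0.42 ± 0.05. ERN1, which encodes IRE1, and EIF2AK3, which encodes PERK, rose with CKI at each time. For ERN1 the log2 differences were 1.31 ± 0.24 at 24 h and 0.99 ± 0.10 and 0.25 ± 0.09 at 48 h (largest adjusted p = 0.0153, edgeR), and for EIF2AK3 they were 1.37 ± 0.21, 0.73 ± 0.14 and 0.50 ± 0.08. SDF2, a close relative of SDF2L1, rose with CKI by 0.84 ± 0.16, 0.52 ± 0.07 and 0.88 ± 0.05, and fell by 0.43 ± 0.07 with OmtOspc at 48 h. POFUT2, an O-fucosyltransferase of the ER, rose with CKI by 0.84 ± 0.15, 0.99 ± 0.07 and 0.98 ± 0.05. DERL3, a protein of ER-associated degradation with few reads in these cells, changed by -0.998 ± 0.27, -1.09 ± 0.27 and -2.33 ± 0.32 with CKI and rose by 1.65 ± 0.20 with OmtOspc at 48 h. EDEM3, which acts in the same pathway, rose by 1.01 ± 0.23, 0.55 ± 0.10 and 0.57 ± 0.05 with CKI. Of the translocation genes, SEC62 had differences of 0.47 ± 0.14, 0.15 ± 0.07 and 0.38 ± 0.05, of which the second did not pass. SSR1, a subunit of the translocon-associated complex, had 0.66 ± 0.15, 0.23 ± 0.06 and -0.07 ± 0.05, of which the last did not pass.

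Genes listed for the PERK branch and as ATF4 targets were higher with every mixture and divided with whole CKI. Whether PERK itself was active was not tested. Of 10 such genes, ATF4 and targets of the branch, 4 rose (PPP1R15A, ATF3, SESN2 and VLDLR) and 1 fell (ATF4) after 24 h of CKI (15.3% and 14.8% of all genes). At 48 h 3 rose and 4 fell in batch 1 (27% and 27%), and 1 rose and 6 fell in batch 2 (32.3% and 34.2%), ATF4 among those that fell in both. The 5 calls at 24 h became 2 without CKI replicate 1. With the mixtures 8 to 10 of the 10 rose in each of the 12 groups and 0 fell (5.61% to 38.4% and 4.84% to 39.9% of all genes), with medians of 1.01 to 2.42. This included N-Omt, where the median of the 10 chaperone genes was -0.77 and that of the PERK branch genes 1.12. NUPR1, a stress-induced chromatin protein, had -0.67 ± 0.60 with CKI at 24 h, which did not pass, changed by -0.68 ± 0.11 and -1.36 ± 0.14 at 48 h, and rose by 1.93 ± 0.11 with OmtOspc at 48 h. VLDLR, a lipoprotein receptor, rose with CKI by 1.61 ± 0.12, 1.20 ± 0.08 and 1.15 ± 0.06. Of 14 chaperones of the cytosol and mitochondria, 0 rose with CKI at any time, and 2, 8 and 10 fell at 24 h, 48 h in batch 1 and 48 h in batch 2. Of all genes 14.8%, 27% and 34.2% fell and 15.3%, 27% and 32.3% rose, so the count that fell at 24 h is near the share of all genes. The 2 that fell at 24 h were HSPB1 and HSPE1, and 6 were called without the 3 libraries named above. HSPB1, a small heat shock protein, changed by -1.17 ± 0.23, -0.97 ± 0.10 and -0.98 ± 0.05. HSPD1, the mitochondrial HSP60, had -0.43 ± 0.19, which did not pass, and -0.75 ± 0.07 and -0.94 ± 0.05. ATF4, SESN2, PPP1R15A, ATF3 and HSPE1, and XBP1 and CREB3L2 above, are named after their values were seen.

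**Figure D5:**
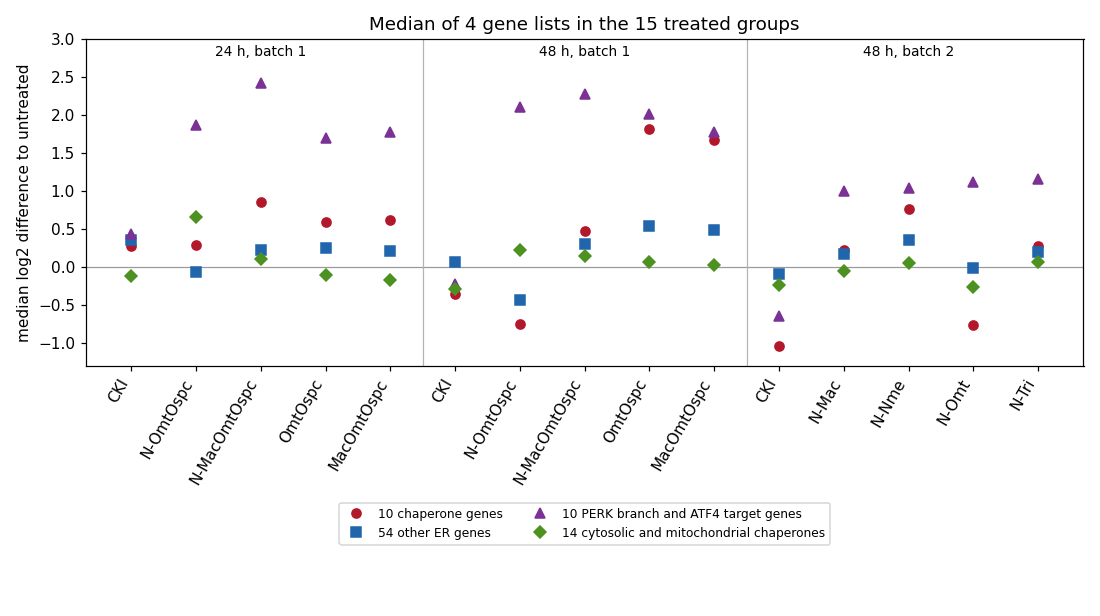
Median log2 difference to untreated cells of the 10 chaperone genes, 54 other ER genes, 10 PERK branch and ATF4 target genes and 14 cytosolic and mitochondrial chaperones in the 15 treated groups. The median of the PERK branch and ATF4 target genes lies above 1 in all 12 mixture groups. In these 12 groups that of the chaperone genes ranges from -0.77 with N-Omt to 1.82 with OmtOspc at 48 h. With CKI at 48 h both medians are below 0, and that of the chaperone genes is lowest in batch 2 (-1.04).

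Among 9773 genes outside the 10 with a mean of at least 10 CPM, those whose log2 ratios followed the mean of the 10 most closely over the 15 treated groups were PDIA6 (Pearson r = 0.937), WARS (0.933), FICD (0.927), SYVN1 (0.924) and MSTO2P (0.924). PDIA6 is an ER disulfide isomerase, WARS a tryptophanyl-tRNA synthetase, FICD an enzyme that AMPylates BiP, SYVN1 the ubiquitin ligase of ER-associated degradation and MSTO2P a pseudogene. Reads of MSTO2P may be shared with near-identical copies, which was not tested. The correlations are descriptions, since the groups share untreated libraries.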

How the data were processed

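Total RNA of 54 MDA-MB-231 libraries was sequenced, and the deposited table holds raw counts of reads per gene symbol that the authors made before deposit, with replicates not pooled. The submitters' processing notes name FastQC 0.11.4, Trim Galore 0.3.7, STAR 2.5.3a, Subread 1.5.2, edgeR 3.22.3 and the genome build hg19. Whether counting used strand is not given in the sources used here, so reads of overlapping or near-identical genes may be shared.

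From the counts, genes with few reads were removed with filterByExpr and libraries were scaled by TMM. Quasi-likelihood models were fitted with edgeR 4.0.16 in R 4.3.3, one for each time and batch (18 libraries, 15191, 15513 and 15115 genes at 24 h, at 48 h in batch 1 and at 48 h in batch 2) and one over all 54 libraries (16072 genes) for untreated cells and for interactions. All 10 chaperone genes were tested in each fit. p-values were adjusted by Benjamini-Hochberg over all genes of a fit, and 0.05 was the threshold. The biological coefficient of variation was 0.175, 0.0763 and 0.048 in the 3 fits by time and batch, so 24 h gives the least precision. Samples were grouped by their titles. Intervals of 95% are 1.96 SE on each side. In simulated counts with 200 genes changed 2-fold, 100%, 99.5% and 100% of them were recovered for CKI against untreated at 24 h, at 48 h in batch 1 and at 48 h in batch 2, and 5.21%, 5.24% and 4.76% of calls were false. The simulation used a dispersion of 0.01 throughout and changed no genes with few reads. This spread is smaller than that of the fit at 24 h, so it checks the code and does not give the recovery in these data.

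The 10 genes and the gene lists were chosen with earlier results of these data known, and the 10 genes on levels in all 18 groups, so their differences carry no printed p-value. Besides the 10 genes, the text names from each list the 2 genes with the largest mean change with CKI among those called at least once, and the 5 genes most alike. Alternatives were DESeq2 1.42.0, other scalings, no filter on low counts, other sets of libraries, a replicate block, leaving out libraries and a log2 minimum of 1. The labels do not say that a replicate number marks a shared culture, and 11 of 135 pairs of libraries with the same number in a time and batch, 10 of them at 24 h, had deviations correlated above 0.1, so no block was used, and whether cultures were shared remains unknown. Among 54 pairs of replicates no libraries were duplicates (chi-square per degree of freedom 1.97 to 131). Only replicates of the same group were compared in this way. Promoter windows come from RefSeq for GRCh38.p14, another build than that of the counts, and were joined by gene symbol only.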

Additional observations from a re-analysis of the deposited data

Results flagged for a closer look

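Between 24 and 48 h the difference between mixtures moved past the threshold of edgeR's interaction test (adjusted p under 0.05) in several of the 10 genes. The genes were chosen on levels of these same groups, so the values are a description and the test is no independent support. For N-MacOmtOspc minus N-OmtOspc the change in log2 difference was 0.67 for HSPA5, 0.78 for HSP90B1, 0.51 for HERPUD1, 0.75 for CALR, 0.62 for MANF, 0.40 for HYOU1 and -0.66 for CRELD2. Those of HSPA5, HSP90B1, HERPUD1, MANF and HYOU1 were not past it with library sizes alone, and those of HERPUD1 and HYOU1 were not without the 3 libraries of 24 h that followed the batch difference. For N-OmtOspc minus OmtOspc it was -2.99 for HSPA5, -2.26 for MANF, -2.22 for SDF2L1, -2.08 for HSP90B1, -2.02 for HYOU1, -2.01 for HERPUD1, -1.79 for PDIA4, -1.39 for CALR, -0.95 for CRELD2 and -0.86 for DNAJB9. For N-MacOmtOspc minus MacOmtOspc it was -2.18 for HSPA5, -1.64 for HYOU1, -1.58 for PDIA4, -1.47 for SDF2L1, -1.44 for MANF, -1.40 for HSP90B1, -1.28 for HERPUD1, -1.23 for CRELD2, -0.88 for DNAJB9 and -0.60 for CALR. That of CALR was not past the threshold in a fit of the groups of this contrast only.

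In other cases every treated library lay on one side of untreated cells in one time or batch and on the opposite side in another, and the difference was not tested. With CKI the log2 difference to untreated cells at 48 h in batch 1 minus that at 24 h was -1.22 for HSPA5, -0.90 for HYOU1, -0.77 for MANF, -0.77 for SDF2L1, -0.50 for PDIA4 and -0.26 for CALR. At 48 h in batch 2 minus 24 h it was -2.14 for HSPA5, -1.97 for DNAJB9, -1.80 for HYOU1, -1.49 for SDF2L1, -1.23 for PDIA4, -1.21 for MANF and -0.59 for CALR. Between the batches at 48 h it was -0.82 for DNAJB9. With N-OmtOspc the change from 24 to 48 h was -1.08 for CALR and -1.30 for MANF, and with OmtOspc it was 1.08 for CRELD2.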

How the results depend on the processing

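With an absolute log2 difference of at least 1 required as well, the other ER genes called higher with CKI were 5, 0 and 0 at 24 h, at 48 h in batch 1 and at 48 h in batch 2, those called lower 0, 1 and 1, the PERK branch genes called 2, 1 and 3, and the cytosolic and mitochondrial chaperones 1, 0 and 0. Member calls between mixtures were then 4 at 24 h and 11 in batch 2, those in untreated cells 0 over time and 3 between batches, and interactions 16.

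At 24 h, without the 3 libraries that followed the batch difference, 2 other ER genes fell, 6 cytosolic and mitochondrial chaperones were called, and the median of CKI was -0.671 against N-MacOmtOspc and -0.305 against MacOmtOspc. With all 54 libraries in one fit the first counts were 2 and 6, and the medians of CKI were -1.69 against N-Nme and -1.28 against N-Tri. With RLE size factors and with DESeq2 they were -0.583 and -0.583 against N-Omt and -1.27 and -1.27 against N-Tri. A fit of each pair alone, chosen after seeing the data, gave -1.68, -0.58 and -1.27 against N-Nme, N-Omt and N-Tri.

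With library sizes alone the median over all genes moved by up to 0.36 in contrasts at 24 h and 0.13 in those at 48 h on the log2 scale, most in contrasts with N-OmtOspc at 24 h. The medians of CKI were then 0.331 against untreated, 0.337 against N-OmtOspc and -0.326 against MacOmtOspc at 24 h, -0.272 against untreated and -0.752 against N-MacOmtOspc at 48 h in batch 1, and -1.28 against N-Mac and -0.513 against N-Omt. Among the differences that then changed sign were SDF2L1 with N-OmtOspc at 24 h (-0.131) and HSP90B1 (0.0849) and CALR (0.0998) for CKI against N-OmtOspc at 24 h. PDIA4 changed sign for CKI against MacOmtOspc at 24 h (0.017) and against N-Omt (0.00464). So did SSR1 with CKI in batch 2 (0.0243) and the interaction of HYOU1 for N-MacOmtOspc minus N-OmtOspc (-0.016). This list is not complete. The median of CKI against N-OmtOspc at 24 h also changed sign, from -0.018 to 0.337.

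Leaving out 1 library at a time, other ER genes called at 24 h ranged from 17 to 22 higher and from 0 to 1 lower, PERK branch genes from 2 to 5, member calls between mixtures at 24 h from 13 to 22 and in untreated cells over time from 4 to 6. The median of CKI against untreated ranged from 0.214 to 0.298 at 24 h and from -0.423 to -0.307 at 48 h in batch 1, against MacOmtOspc from -0.398 to -0.305 at 24 h and from -2.06 to -1.96 at 48 h, against OmtOspc at 48 h from -2.18 to -2.09, against N-MacOmtOspc at 48 h from -0.944 to -0.813, and against N-Mac, N-Nme, N-Omt and N-Tri from -1.31 to -1.27, -1.71 to -1.63, -0.573 to -0.536 and -1.26 to -1.23.

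With a replicate block, member calls between mixtures were 20, 30 and 53, interactions 27, and calls in untreated cells 5 over time and 8 between batches, and 25 of 54 libraries correlated best with their own number. The cause of these changes was not tested, except where fewer libraries or a higher minimum make them.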
